A study of Mus musculus with 33 samples.

Results

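Tumours that received ESK981 together with an antibody against PD-1 were compared with tumours that received the antibody alone. Of the 33 tumours in the series, 15 belonged to these groups by their titles. The combination had 8 tumours from 5 mice, of which 3 mice gave tumours from both flanks. The anti-PD-1 group had 7 tumours from 5 mice, of which 2 mice gave tumours from both flanks. Mice were told apart by the ear tag in the labels and are numbered 1 to 5 within a group, so that tumour 4R is the right flank of mouse 4. The numbers pair nothing between the groups.

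All tumours grew from Myc-CaP, a mouse prostate cancer line driven by a MYC transgene, placed under the skin of both flanks of male FVB mice. Dosing began at 50 mm3 and ran for 3 weeks. Combination mice had ESK981 at 15 mg/kg by gavage on 5 days a week and anti-PD-1 at 200 µg a mouse into the peritoneum 3 times a week. Mice in the anti-PD-1 group had the same antibody schedule without ESK981. The other 2 groups of the series, used below only as a second measure of ESK981, were ESK981 without anti-PD-1 (8 tumours, 5 mice) and vehicle (10 tumours, 5 mice). The protocol names vehicle and an isotype antibody as the counterparts of the 2 agents. Each tumour is one implanted line in one strain, so the mice measure the spread between hosts and not between cancers.

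PD-1 is an inhibitory receptor of activated T cells. When its ligand PD-L1, which interferon gamma induces on tumour and myeloid cells, binds it, T cell killing and cytokine release are dampened, and an antibody against PD-1 lifts that brake. ESK981 is an oral inhibitor of several receptor tyrosine kinases, among them receptors of blood vessel growth, and of PIKfyve, the lipid kinase that makes phosphatidylinositol 3,5-bisphosphate on endosomes and lysosomes. Loss of PIKfyve activity swells these compartments and blocks the late steps of autophagy. The comparison asks what ESK981 changed in tumours already under PD-1 blockade.

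No gene passed the test. Of 15846 genes tested, 0 (0%) had an adjusted p under 0.05 for the combination against anti-PD-1 with limma on mouse means and Benjamini-Hochberg adjustment. At an unadjusted p under 0.05 there were 942 genes (5.94%), of which 61 lay higher in the combination (0.385% of the genes tested) and 881 lower (5.56%). The fitted difference was below 0 for 11806 genes (74.5%) and above 0 for 4040 (25.5%), and the median gene differed by -0.09 on the log2 scale. This shift of the whole table matters for every list below. After median-of-ratios scaling the median was 0.00, with 374 genes higher and 412 lower at an unadjusted p under 0.05. The median 95% interval reached 0.37 log2 units to either side of the estimate. In the main fit, intervals and p-values assume the same spread in all groups for a given gene. Intervals can therefore be too narrow for genes that varied more among combination mice. Fold changes here are differences of mean log2(FPKM + 0.5) over 5 mice in each group, where FPKM is fragments scaled to exon length and library depth.

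The libraries of both groups came from a single flow cell, but anti-PD-1 tumours were all on lane 6 and combination tumours on lane 5 (7 tumours) or lane 4 (tumour 1L), so that lane and group cannot be told apart. Combination tumours had a depth of 1.78e+07 to 2.48e+07 fragments, and the anti-PD-1 group 1.13e+07 to 2.42e+07. Depth, ribosomal RNA, mitochondrial RNA, coding FPKM, the share of the 10 most abundant genes and the number of genes detected had exact permutation p-values of 0.405 to 0.952 over mice (6 two-sided tests, each 0.952 after Benjamini-Hochberg adjustment). Tumours 5R and 4R stood apart. Combination 5R, the only tumour of its mouse, held 500377 FPKM on ribosomal-RNA-like genes, against 19591 at the lowest, and anti-PD-1 4R had the lowest depth, 1.13e+07 fragments, and 52728 FPKM on mitochondrial protein genes. Results are therefore also given without these tumours, and then the median gene differed by -0.02.

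The markers of the injected line were checked first. Krt8, a keratin of simple epithelia, had 6.65 to 33.2 FPKM in combination tumours (median 20.1) and 4.55 to 37.4 in anti-PD-1 tumours (median 22.97). Cldn3, a tight junction claudin, had 34.2 to 54.2 and 43.4 to 61.5 FPKM. Cldn4, another claudin, had 15.04 to 36.9 and 7.54 to 37.6 FPKM, and Krt19, a keratin of ducts and glands, was also present. Several other epithelial markers were near 0. Epcam reached only 0.203 FPKM, Krt18 reached 0.292, and Pbsn, the probasin gene of the normal prostate, was at 0 in all 15 tumours.

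T cell genes lay on both sides of 0. Of 18 T cell genes listed, 12 passed the filter on low values, and counts for this and the other lists cover such members only. Of the 12, 7 were above 0 and 5 below, with a median of 0.02, against -0.09 for all genes. Cd3e, a chain of the T cell receptor complex, had 0.805, 1.90, 2.53, 1.01 and 0.431 FPKM in combination mice 1 to 5 and 0.980, 1.01, 1.30, 0.927 and 1.58 in anti-PD-1 mice. Combination mice 2 and 3 lay above every anti-PD-1 mouse and mice 1 and 5 lay below every one. The log2 difference for Cd3e was 0.04 (95% interval -0.51 to 0.59). In bulk tumours, fewer cells of a type and less RNA per cell cannot be told apart.

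The 9 genes of CD8 T cells and killing were much the same, with 6 above 0, 3 below and a median of 0.06. Gzmb encodes granzyme B, a protease that killer cells deliver to their targets. Its mouse values were 1.48, 2.85, 4.29, 1.51 and 0.619 FPKM in the combination and 0.768, 1.43, 1.18, 1.45 and 2.74 with anti-PD-1, a log2 difference of 0.29 (95% interval -0.37 to 0.96). Both groups held low and high mice, and the ranges overlapped. Cd8a, the CD8 co-receptor, differed by 0.10 (-0.38 to 0.58), Ifng, the interferon gamma gene, by 0.25 (-0.37 to 0.88) and Pdcd1, which encodes PD-1, by 0.14, all on the log2 scale. At the other end of the list Ccl5, a chemokine made by T cells, differed by -0.51 (-1.38 to 0.36).

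**Figure D1:**
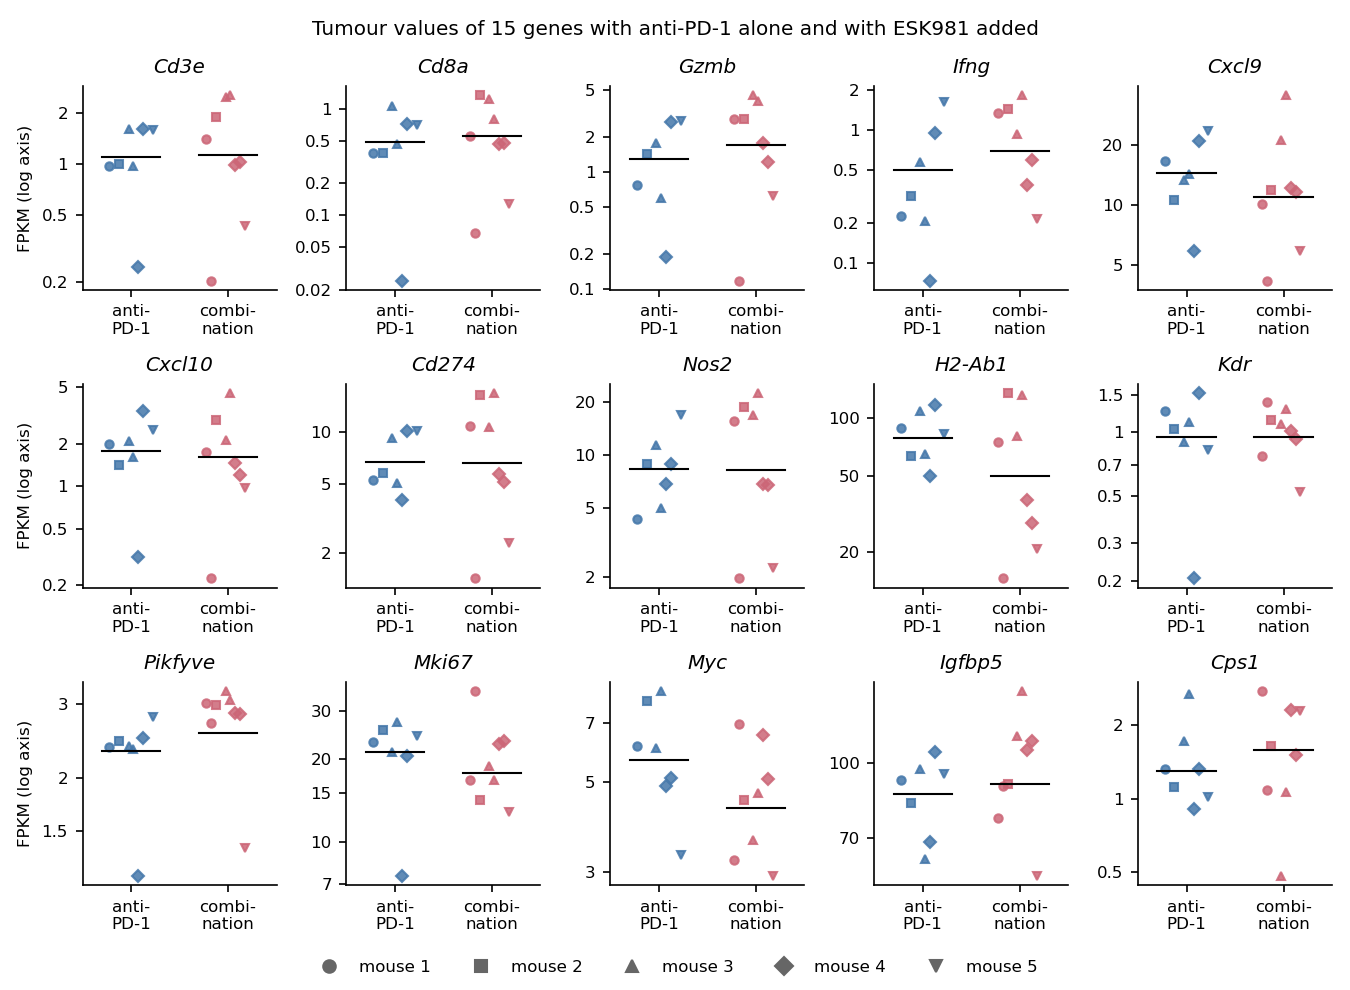
FPKM of 15 genes in each tumour on a log axis, for 7 anti-PD-1 tumours (blue) and 8 combination tumours (red), with a symbol for each mouse and a line at the group's back-transformed mean over mice. Ifng in combination tumour 1L was 0 and is not drawn. For Cd3e, tumours 1L (0.203 FPKM) and 4R (0.246 FPKM) lie far below the other flank of the same mouse.

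Flanks of one mouse could differ as much as mice did. Cd3e was 0.203 FPKM in combination tumour 1L and 1.41 in 1R, and it was 1.61 in anti-PD-1 tumour 4L and 0.246 in 4R. In the other mice with both flanks the values lay closer, at 2.56 and 2.50 in combination mouse 3, 1.03 and 0.994 in combination mouse 4, and 0.973 and 1.62 in anti-PD-1 mouse 3. Cxcl10, a chemokine that draws T cells in through CXCR3, showed the same tumours low, with 0.222 FPKM in combination 1L and 0.314 in anti-PD-1 4R against 0.962 or more in each of the others. Combination 1L was on lane 4 and 1R on lane 5. Anti-PD-1 4R was the library of low depth and high mitochondrial RNA described above. The part of lane and library quality in these differences between flanks was not tested.

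Interferon gamma response genes spread widely among combination mice without a shift of the group. Of 28 tested, 5 were above 0 and 23 below, with a median of -0.06. Median-of-ratios scaling turned this balance to 19 above and 9 below with a median of 0.05. The mean log2(FPKM + 0.5) over the list was 1.98, 3.16, 3.41, 2.31 and 1.46 in combination mice, and 2.49, 2.48, 2.51, 2.16 and 3.12 in anti-PD-1 mice. The SD over mice was 0.81 in the combination and 0.35 with anti-PD-1, and it was larger in the combination for 27 of the 28 genes (26 without combination mouse 5). Over all genes tested the SD was larger in the combination for 74.7%, and for 43.1% without that mouse.

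Single genes show the same spread. Nos2, which was listed with inflammatory myeloid genes and not with interferon gamma genes, encodes the inducible nitric oxide synthase of activated myeloid cells. It had 8.80, 18.6, 19.7, 6.77 and 2.27 FPKM in combination mice and 4.29, 8.82, 8.20, 7.83 and 16.9 in anti-PD-1 mice, a log2 difference of -0.02 (95% interval -0.99 to 0.95). Cd274, which encodes PD-L1, had 6.14, 16.3, 13.7, 5.42 and 2.28 FPKM against 5.25, 5.81, 7.10, 7.07 and 10.1, a log2 difference of -0.03 (-0.84 to 0.78). For each of these genes the combination held both the highest and the lowest mouse of the 10. Cxcl9, which also signals through CXCR3, had 7.18, 11.8, 28.3, 11.9 and 5.90 FPKM against 16.6, 10.6, 13.8, 13.4 and 23.4, a log2 difference of -0.39 (-1.19 to 0.41). After median-of-ratios scaling the difference was 0.08 for both Nos2 and Cd274.

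These genes had moved when ESK981 was given without anti-PD-1. In that comparison, ESK981 against vehicle, limma called 860 genes lower (5.43%) and 1418 higher (8.95%), and 27 of the 28 interferon gamma genes were among those that fell, with a median of -1.55. Nos2 fell by 2.88 on the log2 scale (limma adjusted p = 0.002), Cd274 fell by 1.92 (adjusted p = 0.005), Gzmb fell by 1.47 (adjusted p = 0.007) and Cd3e fell by 1.05 (adjusted p = 0.016). The 2 ESK981 differences share no samples, but 9 of the 10 vehicle tumours were on another flow cell, so that flow cell and the absence of treatment can hardly be told apart. The mean log2 level of the interferon gamma list was 2.31 to 3.497 in those 9 tumours and 1.01 in vehicle 5R, the only one on the flow cell of the treated groups, against 0.84 to 2.07 in tumours with ESK981 alone. Vehicle 5R also had the lowest depth of the series, 9.90e+06 fragments, and the fewest genes detected, 11969. Its mitochondrial protein genes held the most FPKM of the series, 90856. It stayed in the fits without tumours 5R and 4R, which left out combination 5R and anti-PD-1 4R. Each value below that rests on vehicle carries these limits. A gene's difference between the 2 contrasts was tested as an interaction. It was 2.86 for Nos2 (limma adjusted p = 0.092), 1.89 for Cd274 (0.141), 1.76 for Gzmb (0.109), 1.28 for Ifng (0.165) and 1.09 for Cd3e (0.169), so that none of these passed. Without tumours 5R and 4R the interaction was 3.24 for Nos2 (limma adjusted p = 0.011), 2.11 for Cd274 (0.038), 1.78 for Gzmb (0.042), 1.33 for Ifng (0.090) and 1.15 for Cd3e (0.074), and the first 3 of these passed. In that fit 4 of the 28 interferon gamma genes had a called interaction above 0 and 0 below, where the background was 158 of all genes above 0 (0.997%) and 224 below (1.41%). With median-of-ratios scaling and all tumours 1 of the 28 was called above 0 (0.28% of all genes) and 0 below, and Nos2 and Gzmb passed (adjusted p = 0.046 each) while Cd274 did not (0.056). With both changes, a setting chosen after seeing the data, 16 of the 28 were called above 0 (2.41% of all genes) and 0 below (1.04%). With all tumours, the interaction at an unadjusted p under 0.05 was above 0 for 23 of 28 interferon gamma genes and 9 of 12 T cell genes, where the background was 3.4% of all genes above 0 and 14.8% below.

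**Figure D2:**
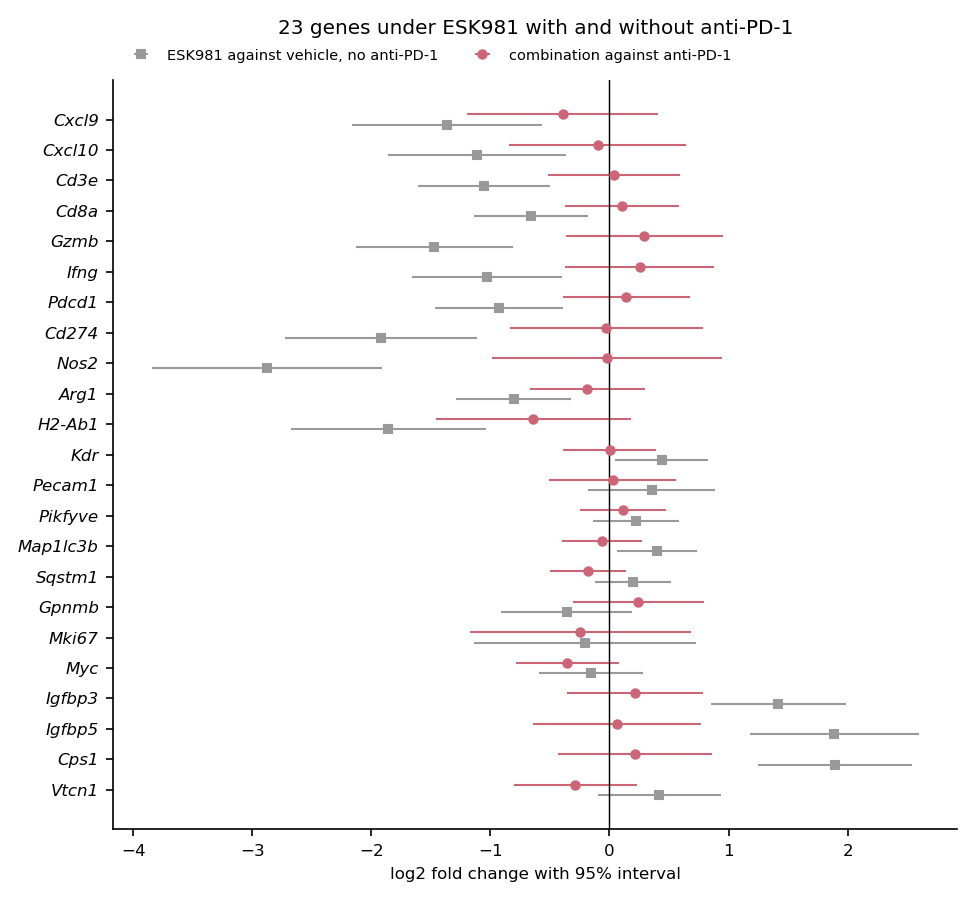
Log2 fold changes with 95% intervals of 23 genes for the combination against anti-PD-1 (red circles) and for ESK981 against vehicle without anti-PD-1 (grey squares), from limma on 5 mice a group. Every red interval takes in 0, whereas the grey estimates run from -2.88 for Nos2 to 1.90 for Cps1.

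Among genes chosen with earlier results of these data known, Igfbp5, Cps1 and Igfbp3 rose with ESK981 alone. Their intervals in the present comparison took in 0. The 1418 genes called higher with ESK981 alone were not summarised as a set. Igfbp5, which encodes a binding protein of insulin-like growth factors, rose by 1.89 on the log2 scale with ESK981 alone (limma adjusted p = 0.003). In the combination it differed from anti-PD-1 by 0.06 (95% interval -0.64 to 0.77), with an interaction of -1.83 (limma adjusted p = 0.119). Cps1, the entry enzyme of the urea cycle, rose by 1.90 (limma adjusted p = 0.002) with ESK981 alone and differed by 0.21 here (95% interval -0.43 to 0.86). Its interaction was -1.68 (limma adjusted p = 0.116) and passed without tumours 5R and 4R, at -1.83 (limma adjusted p = 0.043). It did not pass with median-of-ratios scaling, at an adjusted p of 0.135 with all tumours and 0.058 without both. Igfbp3, another binding protein of the insulin-like growth factors, rose by 1.42 with ESK981 alone (limma adjusted p = 0.004) and differed by 0.21 here (95% interval -0.35 to 0.78).

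The antigen presentation lists lay below 0 with all tumours, with no member past the test. All 10 class II genes and all 16 class I genes tested were below 0, with medians of -0.29 and -0.19. The class I direction turned with 1 tumour per mouse (9 of 16 above 0, median 0.03) and without combination mouse 5 (11 of 16 above 0, median 0.07), whereas the class II median stayed below 0 in both. H2-Ab1, the beta chain of the class II molecule I-A, was the lowest of class II. It had 44.9, 135, 106, 32.9 and 20.7 FPKM in combination mice and 88.2, 63.6, 86.7, 83.3 and 82.2 in anti-PD-1 mice, a log2 difference of -0.64 (95% interval -1.46 to 0.18). Combination mice 1, 4 and 5 lay below all anti-PD-1 mice while mice 2 and 3 lay above all of them. The SD of its log2 values was 1.16 in the combination and 0.18 with anti-PD-1, whereas the interval assumes an equal spread. With ESK981 alone H2-Ab1 fell by 1.86 (limma adjusted p = 0.007), and the interaction was 1.22 (adjusted p = 0.255). Called interactions above 0 without tumours 5R and 4R were 3 of the 16 class I and 1 of the 10 class II genes, against 0.997% of all genes. They were 2 and 1 with median-of-ratios scaling and all tumours (0.28% of all genes), and 12 and 2 with both changes (2.41%).

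Macrophage and complement genes had medians among the lowest of the lists. All 15 macrophage genes were below 0, with a median of -0.44. At an unadjusted p under 0.05 there were 2, against 5.56% of all genes lower. After median-of-ratios scaling, 14 of 15 were below 0 with a median of -0.34. C1qa, a chain of the first complement component that tissue macrophages make, had 23.6, 68.5, 51.4, 24.5 and 22.3 FPKM in combination mice and 72.7, 40.1, 63.0, 68.1 and 37.3 in anti-PD-1 mice. Again combination mice 1, 4 and 5 were the low ones, and the groups overlapped. The log2 difference for C1qa was -0.69 (95% interval -1.31 to -0.07, limma adjusted p = 0.778). Csf1r, the receptor on which macrophages depend, had 4.65, 14.6, 10.4, 4.12 and 3.21 FPKM against 11.4, 7.36, 10.3, 10.7 and 7.68, a log2 difference of -0.57 (-1.24 to 0.11).

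All 13 complement genes, of which C1qa is on the macrophage list as well, were below 0 too. Their median was -0.45 (-0.35 after median-of-ratios scaling). C3, the central component of the cascade, was lowest at -0.95 (95% interval -1.85 to -0.06, limma adjusted p = 0.807). Genes of alternatively activated macrophages had a median of -0.36, with Arg1, which breaks down arginine, at -0.19. Inflammatory myeloid genes, among them Il1b at 0.30, had 5 of 8 above 0 and a median of 0.06. Neutrophil genes had 5 of 7 above 0 and a median of 0.20. S100a8, a calcium-binding protein stored in neutrophils, was the highest of these at 0.38 (-0.41 to 1.18), from mouse means of 0.773 ± 0.575 and 0.390 ± 0.228 FPKM (SD, n = 5). With ESK981 alone the macrophage list had a median of -0.85, with 8 of 15 genes called lower. The complement list then had -1.03, with 10 of 13, where 5.43% of all genes were called lower.

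Type I interferon response genes were below 0 in 25 of 25 cases. These genes answer interferon alpha and beta, and many carry a purine-rich response element, in its shortest form GAAA, any 2 bases and GAAA. Their median was -0.33, and 7 lay lower at an unadjusted p under 0.05 against 5.56% of all genes. Irf7, which encodes a factor that amplifies the response, had 0.752, 1.33, 1.56, 1.34 and 1.45 FPKM in combination mice and 3.55, 1.43, 2.72, 2.30 and 1.87 in anti-PD-1 mice. The log2 difference for Irf7 was -0.66 (95% interval -1.07 to -0.25, limma adjusted p = 0.528), with anti-PD-1 mouse 2 inside the combination's range. Ifit1, an RNA-binding antiviral protein, had 0.313, 0.596, 0.644, 0.855 and 1.09 FPKM against 2.05, 1.05, 1.40, 1.32 and 0.529, a log2 difference of -0.50 (-0.97 to -0.03).

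Ifit3, a partner of Ifit1, had 0.425, 0.719, 1.08, 0.756 and 0.976 FPKM in combination mice and 1.98, 0.940, 1.43, 1.54 and 1.09 in anti-PD-1 mice, a log2 difference of -0.52 (95% interval -0.98 to -0.06). Isg15, a ubiquitin-like modifier, had 7.57, 5.56, 6.78, 11.0 and 6.48 FPKM against 11.9, 9.19, 9.82, 6.69 and 9.46, a log2 difference of -0.31 (-0.70 to 0.07). For both genes the groups overlapped, and for Isg15 the mouse numbered 4 in each group ran against the rest. With ESK981 alone the list had a median of 0.04, and 1 of 25 genes had an interaction above 0 and 5 below 0 at an unadjusted p under 0.05, near the background of 3.4% and 14.8%. The list's position depended on the tumours used. Its median was -0.23 with 1 gene at an unadjusted p under 0.05 after median-of-ratios scaling, -0.45 with 12 genes without tumours 5R and 4R, and -0.13 with 5 genes above 0 when 1 tumour per mouse was used.

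The promoters of 3 of these genes and of the interferon gamma gene Cxcl10 are printed to show the element, and were picked from the genes that hold it. Each runs from 250 to 51 bases before the RefSeq start on GRCm38.p6, in the direction of transcription, with this element (TTTC, any 2 bases and TTTC where it lies on the other strand) in capitals. In Isg15 the 3 matches overlap.
Ifit1, chr19:34640639-34640838, plus strand: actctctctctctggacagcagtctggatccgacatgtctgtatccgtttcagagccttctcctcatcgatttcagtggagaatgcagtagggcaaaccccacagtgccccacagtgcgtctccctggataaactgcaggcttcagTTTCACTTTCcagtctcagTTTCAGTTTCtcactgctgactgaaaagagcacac
Ifit3, chr19:34583279-34583478, plus strand: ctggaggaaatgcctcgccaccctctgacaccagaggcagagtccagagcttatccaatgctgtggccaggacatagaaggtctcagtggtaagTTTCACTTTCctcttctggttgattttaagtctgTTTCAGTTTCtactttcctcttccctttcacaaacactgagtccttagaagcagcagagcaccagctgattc
Isg15, chr4:156200869-156201068, minus strand: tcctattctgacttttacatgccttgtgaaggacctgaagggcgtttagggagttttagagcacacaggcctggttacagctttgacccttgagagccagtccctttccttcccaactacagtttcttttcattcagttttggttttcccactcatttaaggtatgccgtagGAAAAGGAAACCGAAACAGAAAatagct
Cxcl10, chr5:92348940-92349139, minus strand: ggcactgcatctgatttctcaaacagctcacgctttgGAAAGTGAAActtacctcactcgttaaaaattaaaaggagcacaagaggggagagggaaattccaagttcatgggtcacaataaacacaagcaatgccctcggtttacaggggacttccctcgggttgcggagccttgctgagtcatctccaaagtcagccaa
The matches start 104 and 85 bases before the start in Ifit1, 156 and 122 in Ifit3, 78, 72 and 66 in Isg15 and 213 in Cxcl10. On either strand the letters occurred in 790 of 32851 RefSeq promoter windows of this length (2.4%), in 7 of the 19 type I genes with a matched promoter (36.8%) and in 6 of the 17 interferon gamma genes with one (35.3%).

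Genes of the drug's own pathway stayed close to the table's median. Of 12 genes of the PIKfyve complex and the endosomal lipid kinases, 3 were above 0 and 9 below, with a median of -0.08. After median-of-ratios scaling 6 were above 0 and the median was 0.02. At an unadjusted p under 0.05, 2 then lay higher (16.7%), against 2.38% of all genes. Without combination mouse 5, 10 of 12 were above 0 with a median of 0.03, against 0.02 for all genes. Pikfyve itself had 2.70 to 3.22 FPKM in 7 combination tumours and 1.37 in 5R. In anti-PD-1 tumours it had 2.35 to 2.80 FPKM in 6 and 1.17 in 4R. Apart from these 2 tumours, the combination tumours lay above all anti-PD-1 tumours except 1L, which lay within their range. Flanks of the same mouse are not independent, and over all mice the groups overlapped. The log2 difference for Pikfyve was 0.11 (95% interval -0.25 to 0.47) over all mice and 0.21 without both tumours, and neither passed the test.

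Autophagy genes had 6 of 36 above 0 and a median of -0.09, equal to that of all genes. Map1lc3b, whose LC3B protein coats autophagosomes, had 7.22 ± 1.28 FPKM in the combination and 7.58 ± 1.23 with anti-PD-1 (SD, n = 5), a log2 difference of -0.07. Sqstm1, the p62 cargo receptor that is itself degraded by autophagy, had 34.7 ± 7.62 and 38.7 ± 3.88 FPKM, a difference of -0.18. Lysosome genes had 7 of 39 above 0 and a median of -0.12. Gpnmb, a membrane protein that stressed lysosomes induce, was the highest of them at 0.24, with 17.9 ± 7.90 FPKM in the combination and 13.9 ± 1.91 with anti-PD-1. Its 2 highest tumours were the flanks of combination mouse 1, at 26.8 and 31.7 FPKM. These RNA levels do not measure the flux of autophagy.

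Blood vessel genes did not separate either. Endothelial genes had 9 of 16 above 0 and 7 below, with a median of 0.00. Kdr, the main VEGF receptor, had 0.983 ± 0.269 FPKM in the combination and 0.999 ± 0.172 with anti-PD-1 (SD, n = 5), and the log2 difference was 0.00. Pecam1, an adhesion molecule of all endothelium, differed by 0.03. All 9 pericyte and smooth muscle genes were below 0 with a median of -0.21, and all 17 fibroblast and matrix genes were below 0 with a median of -0.31. Among the latter Lum, a collagen-binding proteoglycan, differed by -0.75 (95% interval -1.34 to -0.16, limma adjusted p = 0.674) and Fn1, which encodes fibronectin, by -0.55 (-1.02 to -0.07, limma adjusted p = 0.744).

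**Figure D3:**
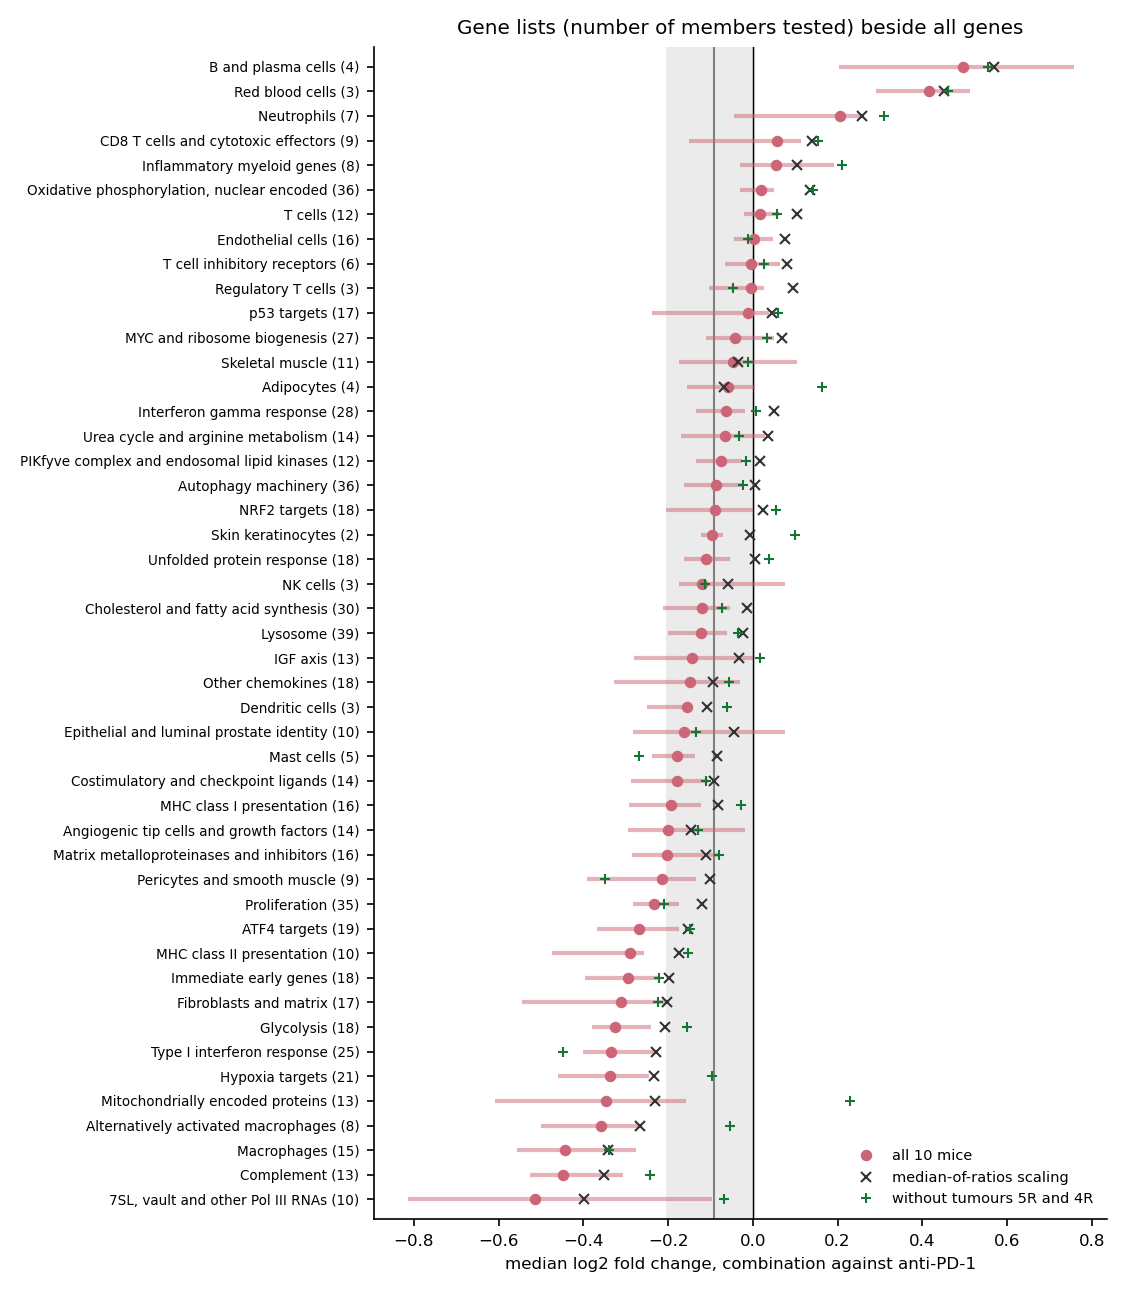
Median log2 fold change of the tested members of 47 gene lists for the combination against anti-PD-1, with bars for the interquartile range of the members, crosses after median-of-ratios scaling and plus signs without tumours 5R and 4R. The grey line and band are the median (-0.09) and interquartile range of all 15846 genes, and the lists run from 0.50 for B and plasma cells to -0.51 for 7SL and other Pol III RNAs.

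Hypoxia and glycolysis lists lay low. Of 21 hypoxia targets, 20 were below 0, with a median of -0.34. Of these 20, 6 had an unadjusted p under 0.05, against 5.56% of all genes lower at that p. Car9, a carbonic anhydrase that HIF1 induces, had 3.07, 2.70, 1.54, 2.76 and 3.47 FPKM in combination mice and 4.12, 6.64, 4.37, 20.6 and 2.39 in anti-PD-1 mice. Vegfa, the vessel growth factor, had 23.1, 20.5, 16.5, 27.2 and 16.2 FPKM against 23.2, 33.7, 26.6, 88.6 and 21.0. Anti-PD-1 mouse 4 was far above the others in both. The log2 differences were -0.89 for Car9 (95% interval -1.65 to -0.13, limma adjusted p = 0.730) and -0.58 for Vegfa (-1.16 to -0.01, limma adjusted p = 0.819). Without anti-PD-1 mouse 4 the list's median was -0.26 with 1 member at an unadjusted p under 0.05, and without tumours 5R and 4R it was -0.10 with 0.

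Hif3a, an inhibitory member of the HIF alpha family, did separate the mice. It had 7.19, 6.46, 7.01, 7.94 and 5.31 FPKM in the combination and 8.69, 8.56, 8.27, 8.82 and 9.01 with anti-PD-1, without overlap, a log2 difference of -0.34 (95% interval -0.63 to -0.06, limma adjusted p = 0.725). All 18 glycolysis genes were below 0 with a median of -0.32. An unadjusted p under 0.05 was found for 3 (Gpi1, Pfkl and Pgam1), against 5.56% of all genes lower. Pfkl, the liver-type phosphofructokinase, had 15.7, 14.6, 13.1, 17.4 and 10.4 FPKM in combination mice and 19.1, 19.0, 20.7, 19.2 and 17.5 in anti-PD-1 mice, also without overlap (log2 difference -0.42, limma adjusted p = 0.757). Mice that did not overlap with the combination lower were found for 113 of all genes (0.713%). Without tumours 5R and 4R, 4 glycolysis genes were above 0 and the median was -0.16. Nuclear genes of oxidative phosphorylation had 19 of 36 above 0 and a median of 0.02.

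Immediate early genes, which growth factor and stress signals switch on within minutes, were the only one of 47 lists whose level separated the mice. The mean log2(FPKM + 0.5) over 18 genes was 2.84, 2.75, 3.02, 2.96 and 2.66 in combination mice and 3.13, 3.28, 3.18, 3.26 and 3.02 in anti-PD-1 mice. The highest combination mouse, at 3.01974, lay just under the lowest anti-PD-1 mouse, at 3.02035. This margin is far smaller than the shift of -0.09 in the median of all genes, and the separation was not tested after scaling. All 18 were below 0 with a median of -0.29. Of these, 6 had an unadjusted p under 0.05, against 5.56% of all genes lower at that p. Mice did not overlap for 4, against 0.713% of all genes in this direction. Junb, a subunit of the AP-1 factor, had 25.7, 24.0, 23.6, 26.8 and 25.05 FPKM in the combination and 36.9, 44.2, 42.5, 37.7 and 28.8 with anti-PD-1, a log2 difference of -0.58 (95% interval -1.04 to -0.12, limma adjusted p = 0.689). Jund, another AP-1 subunit, had 74.7, 75.02, 81.7, 71.5 and 67.0 FPKM against 104, 98.8, 106, 99.8 and 89.3, a difference of -0.43 (-0.76 to -0.09, limma adjusted p = 0.678).

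The other 2 without overlap were Fosl2, an AP-1 subunit, at -0.34 and Ier2, a nuclear protein of the same early wave, at -0.40. Fos, the best known of the class, did not separate, with 4.45 ± 0.749 against 5.65 ± 2.34 FPKM (SD, n = 5) and a log2 difference of -0.21. The list's median was -0.20 after median-of-ratios scaling and -0.22 without tumours 5R and 4R, each with 1 gene at an unadjusted p under 0.05. Of all genes, 412 of 15741 and 685 of 15846 lay lower at that p in these settings. With ESK981 alone 7 of the 18 genes fell, against 5.43% of all genes, with a median of -0.44.

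**Figure D4:**
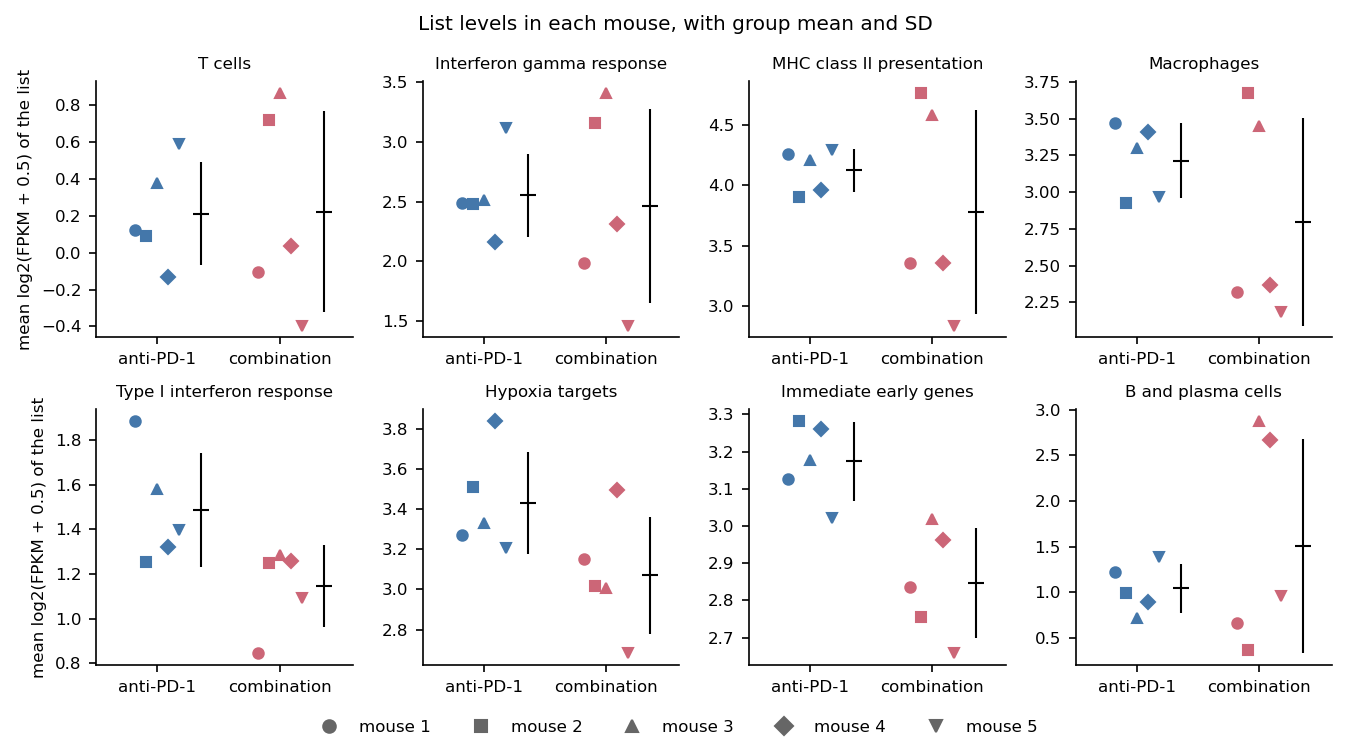
Mean log2(FPKM + 0.5) over the tested members of 8 lists in each mouse, with the mean and SD over 5 mice of each group. Combination mice 2 and 3 are high for interferon gamma, MHC class II and macrophage genes. Only the immediate early genes separate the groups, by a narrow margin (3.01974 in the highest combination mouse, 3.02035 in the lowest anti-PD-1 mouse).

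Tumour cell programmes showed small differences. All 35 proliferation genes were below 0 with a median of -0.23, and 0 had an unadjusted p under 0.05. Mki67, a marker of cycling cells, had 26.2, 14.2, 17.8, 23.01 and 12.8 FPKM in combination mice and 23.1, 25.6, 24.4, 14.0 and 24.3 in anti-PD-1 mice, a log2 difference of -0.24 (95% interval -1.18 to 0.69). The only low anti-PD-1 mouse was mouse 4, through its tumour 4R at 7.5 FPKM. Myc, for which transcripts of the transgene and the mouse gene were not separated here, had 4.49 ± 1.08 and 5.91 ± 1.83 FPKM (SD, n = 5), a difference of -0.35 (-0.79 to 0.08). The 27 genes of MYC and ribosome biogenesis had a median of -0.04, near that of all genes.

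Among epithelial genes Krt19 had 37.1, 25.2, 18.1, 17.3 and 22.6 FPKM in combination mice and 33.9, 69.1, 48.6, 64.2 and 35.4 in anti-PD-1 mice. Combination mouse 1 lay in the anti-PD-1 range through 1 tumour at 54.4 FPKM. On the averaged log2 scale the mice did not overlap, and the difference was -0.94 (95% interval -1.62 to -0.27, limma adjusted p = 0.584). Cldn3 had 45.5, 41.0, 45.5, 47.9 and 34.2 FPKM against 60.5, 50.54, 60.2, 48.2 and 59.3, a difference of -0.39 (limma adjusted p = 0.837), also without overlap. The other epithelial genes of the list were on both sides of 0, and its median was -0.16.

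Stress programmes were mostly at or below the table's median. The unfolded protein response had a median of -0.11, NRF2 targets -0.09 and p53 targets -0.01. ATF4 targets, which answer amino acid shortage, lay lower at -0.27 with 18 of 19 genes below 0, and Fgf21, a hormone that ATF4 induces, was lowest at -0.67. Cholesterol and fatty acid synthesis had 27 of 30 genes below 0 and a median of -0.12. Mitochondrially encoded protein genes had 13 of 13 below 0 and a median of -0.35, which became 0.23 without tumours 5R and 4R.

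Antibody genes lay above 0, and 2 combination mice carried the difference. Of 86 immunoglobulin genes tested, 73 were above 0 and 13 below, with a median of 0.43, and 6 had an unadjusted p under 0.05 in that direction, where all genes gave 0.385%. The smallest adjusted p among them was 0.574. Summed over immunoglobulin genes, combination tumours had 91.0 FPKM in 1L, 7.94 in 1R, 18.5 in 2R, 306 in 3L, 624 in 3R, 761 in 4L, 366 in 4R and 47.1 in 5R, and anti-PD-1 tumours had 15.3 to 105 with a median of 42.9. The 4 tumours of combination mice 3 and 4 lay above the anti-PD-1 range, and the other 4 lay within or below it.

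Igkc, the kappa light chain constant gene, had 15.9, 4.62, 148, 192 and 16.97 FPKM in combination mice and 28.4, 14.7, 9.96, 12.6 and 37.8 in anti-PD-1 mice, a log2 difference of 0.75 (95% interval -1.19 to 2.69). Jchain, which joins secreted antibody, had 0.763, 0.304, 5.77, 5.07 and 0.759 FPKM against 0.631, 0.613, 0.447, 0.477 and 1.71, a difference of 0.78 (-0.32 to 1.89). The B cell surface markers Cd79a and Ms4a1 stayed near 0 in all 15 tumours, with at most 0.304 and 0.0391 FPKM. The 66 T cell receptor genes were evenly placed, with 35 above 0, 31 below and a median of 0.04. Immunoglobulin segments resemble one another, so the split of reads between them is uncertain.

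Only 2 genes (0.0126%) had all combination mice above all anti-PD-1 mice. Ighv8-8, a heavy chain variable segment, had 3.17 ± 3.00 FPKM in the combination and 0.315 ± 0.148 with anti-PD-1 (SD, n = 5), a log2 difference of 1.48 (limma adjusted p = 0.723). Mir7061, a microRNA locus, had 2.26 ± 0.188 and 1.09 ± 0.5995 FPKM, a log2 difference of 0.90 (limma adjusted p = 0.584). Total RNA libraries of this kind do not resolve the mature microRNA.

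Of protein-coding genes with a mean log2 of at least 1 in the higher group, mice that did not overlap and an established symbol, the 10 with the smallest p were all lower in the combination. They were picked by that p and by the separation of the mice, so the values describe the table's edge. The smallest p of any protein-coding gene was that of the predicted gene Gm5093 (limma adjusted p = 0.399), whose mice overlapped. Numbl on chr7:27258433-27282144, a regulator of Notch signalling, had 1.49, 1.44, 1.48, 1.04 and 1.26 FPKM in combination mice and 2.05, 2.12, 1.85, 2.30 and 1.81 in anti-PD-1 mice, a log2 difference of -0.46 (SE 0.12, limma adjusted p = 0.469). Cic on chromosome 7, a repressor released by MAP kinase signalling, had 6.72, 7.36, 7.25, 4.53 and 5.03 FPKM against 8.64, 8.85, 8.54, 8.53 and 8.28, a difference of -0.47. The other 8 were Fntb, the beta subunit of farnesyltransferase, at -0.41, Pla2g6, a phospholipase, at -0.38, Btd, biotinidase, at -0.38, Capn5, a calpain, at -0.36, Rras, a small GTPase, at -0.36, Bcl9l, a co-activator of beta-catenin, at -0.48, Ltbp4, which anchors latent TGF-beta, at -0.52, and Emc10, of the membrane protein insertion complex, at -0.41. The adjusted p-values of these 10 genes in limma ran from 0.469 to 0.574.

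These genes shared a property that the ranking did not use, a high GC content. Their transcripts had 53.7% to 62.2% GC, where the median of protein-coding genes was 49.9%. Over 5 bins of protein-coding genes ordered by GC content (2324 genes each), the median log2 difference went from -0.00 to -0.05, -0.10, -0.14 and -0.21, and the share lower at an unadjusted p under 0.05 went from 0.387% to 11.4%. The medians spanned a like range after median-of-ratios scaling (0.10 to -0.11) and without tumours 5R and 4R (0.08 to -0.14). Over 5 bins of transcript length the medians moved less, from -0.11 to -0.08. The median log2 level of GC-rich less GC-poor genes, centred on the 15 tumours, was 0.02 to 0.33 with anti-PD-1 and -0.50 to 0.17 in the combination. The part of GC content in the results above was not tested, and since lanes follow groups, a difference between lanes and one between treatments cannot be told apart.

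Chromosome 7 held 6 of the 10 genes. It also held 16 of the 70 protein-coding genes whose mice did not overlap in this direction (22.9%), with 7.42% of the protein-coding genes tested. The median GC content of its genes tested was 52.8%.

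Processed pseudogenes, copies of messenger RNAs returned to the genome, had the smallest p-values of all. Gm15361 was first, with 0.898 FPKM in the combination and 2.06 with anti-PD-1, a log2 difference of -0.87 (limma adjusted p = 0.118). The next 4 genes were processed pseudogenes too, Gm12929, Uqcrh-ps1, Gm9824 and Gm15795. Of 1138 tested, 84.4% were below 0, against 74.5% of all genes, and the median was -0.30. At an unadjusted p under 0.05, 354 lay lower (31.1%), against 5.56% of all genes. Pseudogenes of ribosomal proteins had a median of -0.43 (127 genes), whereas the ribosomal protein genes had -0.04 (81 genes). How reads of near-identical copies were assigned is not given in the sources used here, so the split between a gene and its copies is uncertain.

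**Figure D5:**
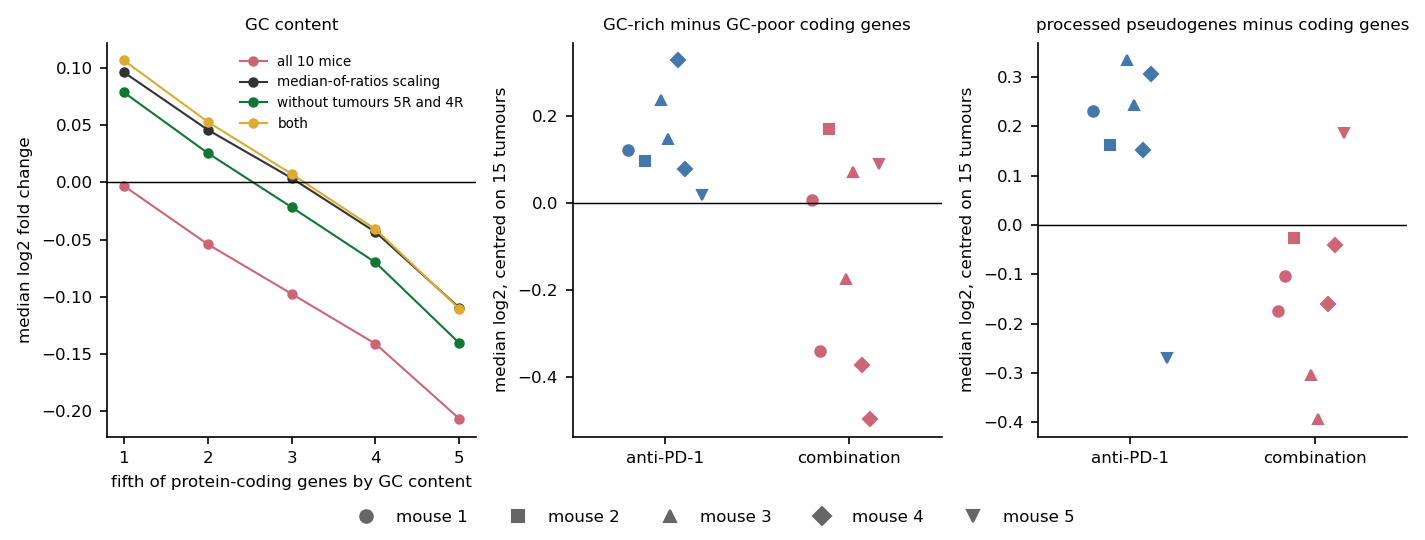
Left, median log2 fold change of the combination against anti-PD-1 over 5 equal bins of protein-coding genes from low to high GC content, under 4 treatments of the data. Middle and right, per tumour and centred on the 15 tumours, the median log2 level of GC-rich less GC-poor coding genes and of processed pseudogenes less coding genes. Anti-PD-1 tumours lie from 0.02 to 0.33 in the middle panel and combination tumours from -0.50 to 0.17.

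By tumour, the median log2 level of processed pseudogenes less that of coding genes, centred on the 15 tumours, was -0.27 to 0.33 in anti-PD-1 tumours and -0.39 to 0.19 in combination tumours. The exceptions to the order of the groups were anti-PD-1 tumour 5L, the lowest of its group, and combination tumour 5R, the highest of its own. When anti-PD-1 mouse 5 was left out, limma called 59 of 15846 genes lower. Of these, 51 were pseudogenes, a class with 1292 of the 15846 genes tested. The rest were 2 small noncoding RNAs, 1 of another class and 5 protein-coding (Gm17541, Gm5093, Neurl1a, Rpl6l and Thbs4). The mouse left out gave tumour 5L, the exception named above, so these calls are not independent of the pseudogene order. The protein-coding genes are named because of their small number, after their values were seen.

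The interaction, the ESK981 difference with anti-PD-1 less that without it, passed the test for 4 genes (0.0252%), all noncoding or pseudogenes. It was 3.92 for Gm23547, 3.12 for Scarna17, 1.64 for Gm15466 and -1.62 for Gm23134 on the log2 scale. Mean FPKM in vehicle, ESK981, combination and anti-PD-1 mice was 28.8, 2.31, 1.29 and 1.99 for Gm23547 and 136, 13.8, 18.2 and 23.9 for Scarna17. For Gm15466 it was 14.8, 3.17, 2.90 and 4.90, and for Gm23134 7.07, 16.4, 12.8 and 15.3. In each gene the vehicle mean stood apart from those of the treated groups. Among the 15 tumours of the combination and anti-PD-1 groups, anti-PD-1 4R was far above the rest in the first 3 genes. It had 103 FPKM of Scarna17 against at most 35.9, 16.3 of Gm23547 against at most 2.53 and 18.3 of Gm15466 against at most 6.05. Without tumours 5R and 4R their interactions were 3.61, 4.73 and 2.07 and passed as well. Over all genes the median interaction was -0.22. The number called depended on the scaling and on the mice, with 62 genes after median-of-ratios scaling, 382 without tumours 5R and 4R, 67 without anti-PD-1 mouse 5, 55 without anti-PD-1 mouse 4, 35 without combination mouse 5, 29 without combination mouse 4 and 1 or 0 without any other mouse of these groups.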

How the data were processed

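The deposited table held FPKM per gene, made by the authors with STAR and featureCounts on mm10, per the submitters' processing notes. Their versions, the annotation and the strand setting are not given, so overlapping, antisense and near-identical genes are uncertain. Per the labels, total RNA was depleted of ribosomal RNA. All value columns matched a sample (0 unmatched). Of 48795 gene identifiers, 48435 matched GENCODE M21 on GRCm38, which gave classes and coordinates. Low FPKM times exon length came out whole within 0.01 fragments, which gave each tumour's depth.

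From the deposited FPKM, log2(FPKM + 0.5) was averaged over the tumours of an ear tag, which understates changes of low genes. Genes with at least 0.5 FPKM in at least 5 tumours were kept. Means of 20 mice in 4 groups were fitted with limma 3.58.1 in R 4.3.3 (trend on the mean, residual df 16, prior df 5.07, two-sided, Benjamini-Hochberg over all genes tested), which was also tested on simulated data. Single values per mouse were compared with exact permutation tests. RefSeq promoters, GC content and figures were handled in Python 3.11.15 with pandas 2.3.3, numpy 2.4.6 and matplotlib 3.10.9. Within a mouse, tumours correlated at 0.235 (consensus over 13 mice with both flanks).

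Genes were named by rule: called genes with the largest changes (0), the 10 protein-coding genes of smallest p with a mean log2 of at least 1 in the higher group, mice without overlap and no predicted or clone name, genes with a called interaction, and 25 fixed genes, of which Tek was under the filter and 1 is not reported here. List members with the lowest, highest or smallest p values were named after their values were seen. The groups, the 47 lists (826 entries) and the fixed genes were chosen with earlier results of these data known. Alternatives covered pseudocount, filter, scaling, the groups fitted, tumour weighting, tumours 5R and 4R, the prior, and each mouse left out (25 settings in all). No paired analysis was possible because the mice of the groups share no number in the labels.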

Additional observations from a re-analysis of the deposited data

Results flagged for a closer look

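In groups of 5 mice, a single mouse was marked as far from the rest where its gap to the next mouse took more than 0.71 of the group's range on the log2 scale. Chance does this in about 1 of 20 groups. Named genes and library measures were screened in both groups, so some of the marks below would arise by chance alone. Mouse 5 of the combination, whose only tumour was 5R, was the extreme one for Pikfyve (gap 0.8736 of the range), Kdr (0.7176) and Emc10 (0.7394), and for ribosomal-RNA-like FPKM (0.8246). Mouse 4 of the anti-PD-1 group, which includes tumour 4R, was the extreme one for Mki67 (0.8577) and Bcl9l (0.7311). For Ifng in the anti-PD-1 group it was mouse 5 (0.7897).

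The ESK981 difference was itself different with and without anti-PD-1 for 4 genes by the limma interaction at an adjusted p under 0.05. On the log2 scale it was 3.918 for Gm23547, 3.115 for Scarna17, 1.643 for Gm15466 and -1.617 for Gm23134. In vehicle mice the mean FPKM of these genes was 28.8, 136, 14.8 and 7.07 in that order, apart from the means of the treated groups given above. Most vehicle tumours were on another flow cell, and its part in these values was not tested.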

How the results depend on the processing

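Under 23 of 25 settings the number of genes called for the combination against anti-PD-1 was 0. Without a filter 1 gene was called lower (1 in all), and with 1 mouse left out 0 to 59 were called lower (0 to 59 in all), the 59 without anti-PD-1 mouse 5. The interaction calls, 4 with the planned fit, were 1 with a pseudocount of 0.1, 0 without a filter, 62 with median-of-ratios scaling, 129 with scaling to nuclear coding FPKM, 0 with 1 tumour per mouse, 382 without tumours 5R and 4R, 543 without them and with median-of-ratios scaling, and 0 to 67 with 1 mouse left out. Of 37 named genes, 24 kept their sign under each setting and 13 did not, and 0 of the 13 passed the test under any. With a pseudocount of 0.1 Cd3e was -0.00114. With a pseudocount of 1 Cd274 was 0.00291, Nos2 0.00590 and Kdr -0.00356. With median-of-ratios scaling Cxcl10 was 0.0079, Cd274 0.0767, Nos2 0.0807 and Map1lc3b 0.0465, and with coding scaling Cd274 was 0.0611, Nos2 0.0657 and Map1lc3b 0.0268. With single tumours Nos2 was 0.0463 and Map1lc3b 0.0073, and with 1 tumour per mouse Cxcl10 was 0.19, Cd274 0.22, Nos2 0.13 and Map1lc3b 0.0708. Without tumours 5R and 4R, also with 3 groups fitted, Cd274 was 0.19, Nos2 0.36, Kdr -0.0247, Gm15466 0.0084 and Scarna17 0.29, and with median-of-ratios scaling in addition Cd274 was 0.22, Nos2 0.39, Arg1 0.00819, Kdr -0.0026, Gm15466 0.0379 and Scarna17 0.32. With 1 mouse left out the ranges were -0.30 to 0.0832 for Cxcl10, -0.34 to 0.31 for Cd274, -0.32 to 0.39 for Nos2, -0.0676 to 0.13 for Kdr, -0.18 to 0.24 for Cd3e, -0.10 to 0.29 for Cd8a, -0.0580 to 0.32 for Pdcd1, -0.11 to 0.24 for Pecam1, -0.0558 to 0.22 for Igfbp5, -0.16 to 0.0265 for Map1lc3b and -0.50 to 0.10 for Scarna17. The cause of these changes was not tested. Of the 47 lists, 18 had a median below 0 under each setting and 2, B and plasma cells and red blood cells, above 0. With 5 mice a group the median interval of 0.37 log2 units limits what could be called, and the adjustment over protein-coding genes, the 3 groups fitted without both tumours and median-of-ratios scaling without both tumours were chosen after seeing the data.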

Other observations

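Other cell type lists held few tested genes. Of 3 regulatory T cell genes 1 was above 0, with a median log2 difference of -0.01 between the combination and anti-PD-1, and of 3 natural killer cell genes 1 was above 0, with a median of -0.12. All 3 dendritic cell genes (median -0.15) and all 5 mast cell genes (median -0.18) were below 0. Genes of tissue around the graft had medians of -0.05 for skeletal muscle (11 genes), -0.06 for adipocytes (4 genes) and -0.10 for skin keratinocytes (2 genes), and 0 of these genes passed the limma test. All 3 red blood cell genes tested were above 0. Hbb-bs, a beta globin, had 4.36, 1.71, 2.52, 16.9 and 4.17 FPKM in combination mice and 1.54, 1.63, 2.46, 1.68 and 7.27 in anti-PD-1 mice, a log2 difference of 0.61 (limma adjusted p = 0.9995), and the groups overlapped.

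Chemokines outside the interferon gamma list had 4 of 18 genes above 0 and a median of -0.15. Ccl8, a chemokine that attracts monocytes, was the lowest of them, with 22.5, 99.2, 65.4, 18.04 and 17.97 FPKM in combination mice and 66.2, 39.6, 69.9, 195 and 35.4 in anti-PD-1 mice, a log2 difference of -0.98 (limma adjusted p = 0.819). Combination mice 1, 4 and 5 lay below all anti-PD-1 mice, as they did for H2-Ab1, and anti-PD-1 mouse 4 was the highest of the 10. The list of 7SL and other Pol III RNAs had 9 of 10 genes below 0 and a median of -0.51. The matrix metalloproteinase list had 13 of 16 genes below 0 and a median of -0.20.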
